A study of Rattus norvegicus with 18 samples.

Results

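The rats carried mutant Cdkn1b, the gene of the cell cycle inhibitor p27Kip1, and developed medullary thyroid carcinoma, a tumour of the calcitonin-making C cells of the thyroid. Tumour RNA was measured on 1 array per animal, and the titles place the 18 arrays in 3 groups of 6: homozygous mutants at 9 months, heterozygous mutants at 18 months and heterozygous mutants at 9 months. The animals were of mixed Sprague–Dawley white eye/Wistar–Kyoto background, untreated and all mutant, with no wild-type rat and no normal thyroid among the arrays. The values are log2 RMA values, so that a difference of 1 is a doubling of signal, and levels of different probe sets are not set against each other. Many of these specimens also held RNA of skeletal muscle, and the comparison here sorts them by it. All 18 arrays were ranked by Actn3, the fast-fibre alpha-actinin, through the probe set of that gene with the highest mean. The 9 highest are called muscle-rich and the 9 lowest muscle-poor, with title group as a covariate in every fit. This ordering was made from measured values and not from labels, so the comparison of the muscle-rich with the muscle-poor specimens is a description. Fewer muscle fibres and less muscle RNA per fibre cannot be told apart in whole specimens.

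Skeletal muscle contracts through the sarcomere, in which myosin thick filaments pull on actin thin filaments anchored at the Z-disc. Fast fibres and slow fibres build it from different isoforms of myosin, troponin and alpha-actinin. A nerve impulse opens a calcium channel complex on the fibre membrane and releases calcium from the sarcoplasmic reticulum, a pump returns it, and creatine kinase, glycogen breakdown and myoglobin serve the energy demand. In the neck, strap muscles and the muscles of larynx, pharynx and upper oesophagus lie next to the thyroid.

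Actn3 itself ran over 4.88 log2 units without a clean break at the dividing line. The muscle-rich specimens lay at 9.79 to 11.56 (median 10.65) and the muscle-poor ones at 6.68 to 9.67 (median 8.91). The last muscle-rich array, heterozygous 9-month replicate 1, stood at 9.79 and the first muscle-poor one, heterozygous 18-month replicate 4, at 9.67, so that 0.119 log2 units separated them. The widest step lay lower down, where the value dropped by 1.92 between heterozygous 18-month replicate 2 (8.91) and homozygous 9-month replicate 3 (6.99). Below it lay 4 arrays, homozygous replicates 3 and 2 at 6.99 and 6.72 and heterozygous 18-month replicates 5 and 6 at 6.94 and 6.68. The muscle-poor specimens thus hold 5 arrays that are still rich in Actn3 next to 4 that are low. Muscle-rich were 3 of 6 homozygous specimens, 1 of 6 heterozygous specimens at 18 months and 5 of 6 heterozygous specimens at 9 months.

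Myh4, the myosin heavy chain of the fastest fibres and the second marker of muscle here, followed a similar order. It lay at 10.65 to 12.38 (median 11.76) in muscle-rich specimens, against 6.30 to 10.70 (median 8.53) in muscle-poor specimens. The ranges touched only through heterozygous 18-month replicate 4, which at 10.70 stood above the lowest muscle-rich array. The fitted difference was 2.86 ± 0.71 log2 units (SE) and, for all its size, was not called at an adjusted p under 0.05.

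**Figure D1:**
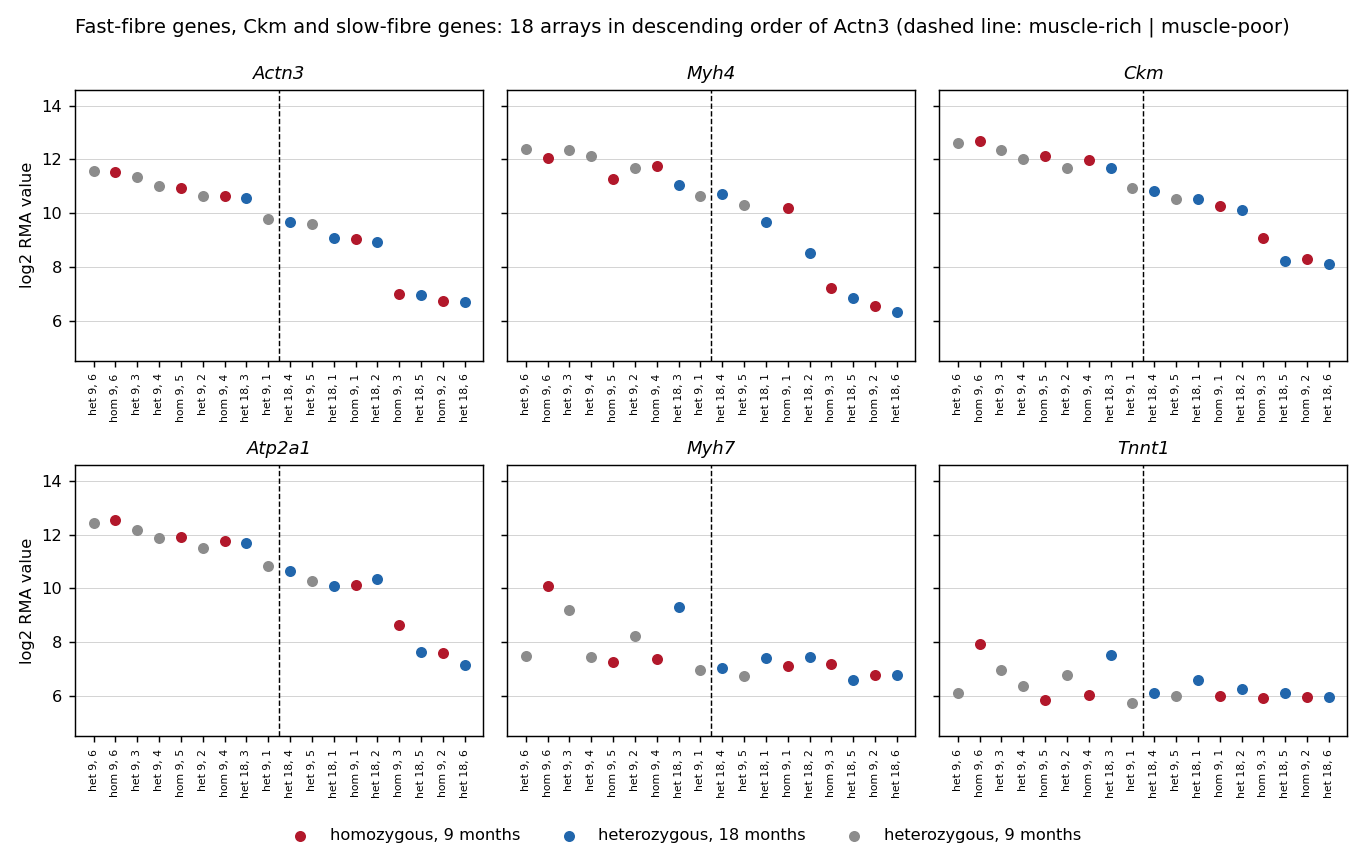
Log2 RMA values (vertical axis) of Actn3, Myh4, Ckm and Atp2a1 and of the slow-fibre genes Myh7 and Tnnt1 in 18 arrays, set out from left to right in descending order of Actn3, with muscle-rich specimens left and muscle-poor specimens right of the dashed line and one point per array coloured by title group. The first 4 genes step down together to 4 low arrays, whereas Myh7 and Tnnt1 are highest in homozygous replicate 6 (10.11 and 7.94) and heterozygous 18-month replicate 3 (9.32 and 7.54).

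Over all 11369 genes tested, muscle-rich and muscle-poor specimens differed by a median of 0.00 log2 units, and by at least 1 in the muscle-rich direction for 56 genes (0.493%), 44 of which belong to 10 lists of muscle genes. In the opposite direction 1 gene passed that size, Gcg, the gene of glucagon, with means of 8.67 in muscle-rich and 9.55 in muscle-poor specimens and a fitted difference, with title group as covariate, of -1.33 ± 0.82 (SE) that was not called. The muscle lists name 150 genes, of which 118 were measured and 106 passed the filter on low values, and 99 of these 106 were higher in the muscle-rich specimens, with a median difference of 0.55. The limma fit called 44 genes higher (0.387%) and 0 lower (0%) at an adjusted p under 0.05, with 304 and 124 genes at an unadjusted p under 0.05. Of the 44, 32 were in the muscle lists as matched by symbol. Since Actn3 set the order of the arrays, these counts measure how closely other genes follow it and are no independent evidence of muscle. The number called also moved widely: it was 0 without homozygous replicate 2, without homozygous replicate 3 or without heterozygous 18-month replicate 3. It was 7 to 20 without homozygous replicate 1, 4, 5 or 6 or heterozygous 9-month replicate 3 or 4, 26 without heterozygous 18-month replicate 5, and 30 to 53 without each other array. Each of the 44 genes was higher in the muscle-rich specimens under every alternative in which it was tested. They were picked for being higher in these same arrays, so their direction is no separate support. Every muscle-rich array lay above every muscle-poor array for 26 genes (0.229%), 17 of them in the muscle lists.

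Ckm, the creatine kinase of muscle, followed Actn3 most closely of all genes. After the mean of each title group was subtracted, its Pearson correlation with Actn3 over the 18 arrays was 0.994. Ckm lay at 10.93 to 12.69 (median 12.03) in muscle-rich specimens, against 8.09 to 10.84 (median 10.11) in muscle-poor specimens, and the 2 ranges did not overlap. The next most like Actn3 were Atp2a1, the calcium pump of fast fibres (0.987), Pvalb, the calcium buffer parvalbumin (0.983), and Tnnt3, fast troponin T (0.982). They were followed by Myh4 (0.979), Pygm (0.973), Acta1 (0.970), Tnnc2, Mylk2, Trdn, Ampd1 and Ttn. These values are descriptions over arrays that share the same ordering. Of the genes tested, 37 had a correlation above 0.9 (0.325%), and 30 of these were in the muscle lists.

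The start regions of 4 genes of this group are printed because they move together and represent 4 roles: the motor (Myh4), the energy store (Ckm), the thin filament (Acta1) and the intermediate filament that ties Z-discs together (Des). They are RefSeq sequences of assembly GRCr8, 5′ to 3′ on the strand of the gene, from 250 bases before to 50 bases after the annotated start. Capitals mark matches on either strand to the E-box CAGCTG, the MEF2-like motif (CTA and TAG with any 4 bases between), the CArG box and the TATA motif TATAAA. The regions are chr10:52421898-52422197 on the plus strand for Myh4, chr1:88189211-88189510 on the plus strand for Ckm, chr19:68784145-68784444 on the minus strand for Acta1 and chr9:84299376-84299675 on the plus strand for Des.
Myh4: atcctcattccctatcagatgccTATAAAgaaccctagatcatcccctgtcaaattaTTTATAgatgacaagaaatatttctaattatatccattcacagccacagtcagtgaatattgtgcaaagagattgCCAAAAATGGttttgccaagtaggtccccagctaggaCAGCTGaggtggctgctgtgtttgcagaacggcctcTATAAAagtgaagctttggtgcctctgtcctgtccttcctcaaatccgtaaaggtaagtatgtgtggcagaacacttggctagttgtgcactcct
Ckm: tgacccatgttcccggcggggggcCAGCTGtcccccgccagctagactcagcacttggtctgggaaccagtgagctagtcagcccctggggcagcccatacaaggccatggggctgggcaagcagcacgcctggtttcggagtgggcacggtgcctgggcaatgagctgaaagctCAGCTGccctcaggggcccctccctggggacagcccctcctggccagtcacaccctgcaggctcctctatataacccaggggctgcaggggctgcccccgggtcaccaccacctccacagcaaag
Acta1: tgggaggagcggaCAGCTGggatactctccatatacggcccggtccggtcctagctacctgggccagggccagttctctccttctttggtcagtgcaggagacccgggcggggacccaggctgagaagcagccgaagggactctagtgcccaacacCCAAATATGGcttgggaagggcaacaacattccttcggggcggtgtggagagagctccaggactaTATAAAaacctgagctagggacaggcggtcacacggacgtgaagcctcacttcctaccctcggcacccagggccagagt
Des: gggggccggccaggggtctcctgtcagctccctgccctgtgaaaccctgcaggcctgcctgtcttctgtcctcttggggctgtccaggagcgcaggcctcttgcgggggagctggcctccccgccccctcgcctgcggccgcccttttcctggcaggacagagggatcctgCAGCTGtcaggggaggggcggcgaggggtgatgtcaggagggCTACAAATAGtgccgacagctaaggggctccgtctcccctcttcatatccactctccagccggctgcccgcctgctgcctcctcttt
The E-box stands at -81 in Myh4, at -226 and -75 in Ckm, at -237 in Acta1 and at -79 in Des, counted from the annotated start. A CArG box stands at -118 in Myh4 and -94 in Acta1, and the MEF2-like motif at -37 in Des. Of the 44 called genes, 35 had a start region in the RefSeq table. The E-box was in 42.9% of these 35, against 17.0% of 9400 genes tested and 15.1% of all 27457 regions in the table. The MEF2-like motif was in 17.1%, against 3.07% of genes tested and 3.83% of all regions. The CArG box was in 8.57%, against 1.18% and 1.64%, and the TATA motif in 25.7%, against 7.54% and 14.3%. MEF2-like and TATA matches overlap in Ampd1 and Ppp1r3a. The region of Actn3 held none of these letters. A match is a description of the sequence and no evidence of binding.

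Among thick filament genes all 12 tested were higher in muscle-rich specimens, with a median difference of 1.71, and 4 were called. Myl1, the alkali light chain of fast myosin, lay at 11.24 to 12.61 in muscle-rich specimens and at 6.74 to 10.91 in muscle-poor specimens. Its difference of 2.60 ± 0.62 (SE) came without overlap of the ranges. Myh1, the heavy chain of intermediate fast fibres, differed by 2.55 ± 0.76 but took another order over the arrays than Myh4. In heterozygous 18-month replicate 2 it stood at 10.37, its highest among muscle-poor arrays, where Myh4 stood at 8.53, and in homozygous replicate 1 it stood at 7.38, below all muscle-poor arrays but the 3 lowest, where Myh4 stood at 10.20. Myh2, the heavy chain of oxidative fast fibres, was highest in homozygous replicate 6 at 9.88 and lay at 5.84 to 8.28 in the other muscle-rich arrays, against 5.56 to 7.87 in muscle-poor arrays. These heavy chain genes are near copies of each other, and how far their probes cross-hybridise was not tested. The genes called in this list were Myl3, Mylk2, Mybpc2 and Myom1. Mylk2, the myosin light chain kinase of skeletal muscle, lay at 7.77 to 9.78 in muscle-rich and 6.06 to 7.76 in muscle-poor specimens.

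Thin filament genes were all higher too, 16 of 16, with a median difference of 0.92 and 7 called. Acta1, the actin of skeletal muscle, lay at 11.61 to 13.33 (median 12.52) in muscle-rich specimens and at 8.20 to 11.54 (median 10.23) in muscle-poor specimens, a difference of 2.59 ± 0.53. The fast troponins went along with it: Tnnt3 differed by 2.52 ± 0.49, the calcium sensor Tnnc2 by 2.38 ± 0.49 and the inhibitory subunit Tnni2 by 2.15 ± 0.42. Tpm2, a tropomyosin, differed by 2.13 ± 0.33 without overlap. Tpm1, a tropomyosin that many cell types make, differed by only 0.45 ± 0.08, yet its 9 muscle-rich values (10.49 to 10.91) stood above its 9 muscle-poor values (10.06 to 10.37). Tpm3 differed by 0.08 ± 0.07 with overlapping ranges. Actc1, the actin of heart and of developing skeletal muscle, stood apart from this group: it was 10.32 in homozygous replicate 4, against 8.88 or less in every other array.

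At the Z-disc and along titin, 15 of 15 genes tested were higher, with a median difference of 1.64 and 8 called. Myot, the Z-disc protein myotilin, lay at 8.59 to 11.11 (median 9.93) in muscle-rich specimens and at 5.73 to 8.64 (median 7.85) in muscle-poor specimens. Only heterozygous 18-month replicate 1 (8.64) reached the lowest muscle-rich array (8.59). Ttn, the giant spring titin, differed by 2.54 ± 0.59 and Xirp2, an actin-binding repeat protein, by 2.13 ± 0.50, both large but not called. Xirp2 stood at 9.40 in heterozygous 18-month replicate 1, above 6 of 9 muscle-rich arrays, although this specimen ranked among the muscle-poor. Des, desmin, lay at 9.84 to 11.57 (median 10.69) in muscle-rich and at 8.54 to 9.85 (median 8.76) in muscle-poor specimens. Des differed by 1.75 ± 0.30. The ubiquitin ligases of muscle wasting differed less, Fbxo32 by 0.52 ± 0.17 and Trim63 by 0.46 ± 0.12, and neither was called.

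**Figure D2:**
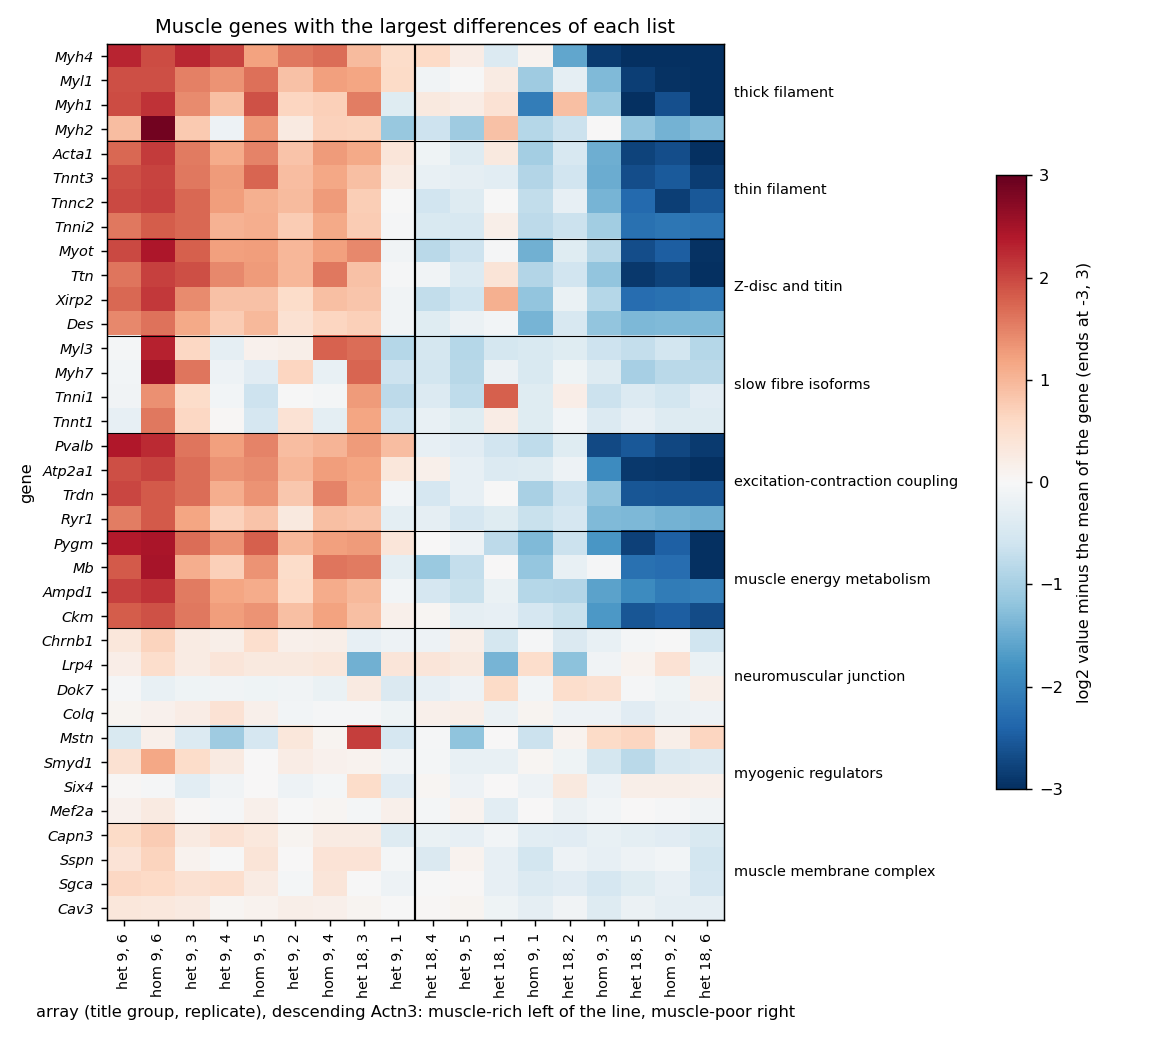
Log2 RMA value minus the mean of the gene over 18 arrays (colour, ending at -3 and 3) for the genes with the largest differences of each muscle list (rows), with arrays (columns) in descending order of Actn3 and muscle-rich arrays left of the line. Rows of the thick and thin filament, the Z-disc, calcium handling and energy supply grade from left to right, slow-fibre rows peak in single arrays such as homozygous replicate 6, and rows of the neuromuscular junction and the myogenic regulators show little grading.

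Genes of fast and of slow fibres took different orders over the arrays. Of 11 genes of fast fibres, 11 were higher in muscle-rich specimens, their median difference was 2.52, and 10 had a correlation with Actn3 above 0.9. Of 10 genes of slow fibres tested, 9 were higher, their median difference was 0.48, and 0 had a correlation above 0.9, with a median of 0.58. The mean of the fast list ran from 9.38 to 11.30 in muscle-rich arrays and from 6.54 to 9.14 in muscle-poor arrays, whereas the mean of the slow list ran from 7.28 to 8.68 in muscle-rich and from 7.18 to 7.83 in muscle-poor arrays. The lists share no gene, but both were measured in the same specimens, and their difference was not tested. Actn3, which ordered the arrays, is itself a fast-fibre gene, so a closer fit of the fast list was built into the ranking.

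Myh7, the heavy chain of slow fibres and of the ventricle, was 10.11 in homozygous replicate 6, 9.32 in heterozygous 18-month replicate 3, 9.19 in heterozygous 9-month replicate 3 and 8.23 in heterozygous 9-month replicate 2. It lay at 6.97 to 7.50 in the other 5 muscle-rich arrays and at 6.59 to 7.46 in all muscle-poor arrays. Heterozygous 9-month replicate 6, which had the highest Actn3 of all at 11.56, was among those 5 with a Myh7 value of 7.50. Slow troponin T, Tnnt1, repeated this order with 7.94, 7.54, 6.97 and 6.77 in the same 4 arrays, against at most 6.57 elsewhere. Slow troponin C, Tnnc1, stood at 8.18, 7.97, 7.83 and 7.50 there, next to 7.52 in heterozygous 18-month replicate 1. Slow troponin I, Tnni1, was highest not in a muscle-rich array but in heterozygous 18-month replicate 1, at 9.29, above 8.87 in homozygous replicate 6. Mybpc1, the slow myosin-binding protein C, was also raised in that array (10.24) and in heterozygous 18-month replicate 6 (9.85), which had the lowest Actn3 of all. Myl3, the slow and ventricular light chain, was the only slow-list gene called, with 6.57 to 9.73 (median 7.598) in muscle-rich and 6.56 to 7.06 (median 6.88) in muscle-poor specimens. Its highest values were in homozygous replicates 6 (9.73) and 4 (9.19) and heterozygous 18-month replicate 3 (9.09). Homozygous replicate 4 had Myh7 at only 7.36, and was the array with the highest Actc1 and with the highest Sln, a small inhibitor of the calcium pump (10.08, against 8.84 or less elsewhere). Atp2a2, the calcium pump of slow and cardiac fibres that most other cells use as well, differed by -0.06 ± 0.10.

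Of 16 genes of excitation-contraction coupling, 15 were higher and 6 were called, with a median difference of 0.46. Pvalb lay at 9.51 to 10.99 (median 9.85) in muscle-rich specimens and at 5.71 to 8.34 (median 7.81) in muscle-poor specimens. Its difference of 2.88 ± 0.51 was the largest of all genes tested, and 4 muscle-poor arrays lay at 5.71 to 6.04. Atp2a1 differed by 2.62 ± 0.59 without overlap but was not called. Trdn, which anchors the release complex, differed by 2.47 ± 0.48, and Ryr1, the calcium release channel, by 1.85 ± 0.32. Cacng1 and Stac3, parts of the voltage sensor of the fibre membrane, differed by 1.53 ± 0.29 and 1.40 ± 0.28. Other members barely differed: the junction protein Jph1 by 0.22 ± 0.22, Cacnb1, a calcium channel subunit, by 0.07 ± 0.23 and Asph by -0.21 ± 0.29.

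Energy genes were higher in 20 of 20 cases, with a median of 0.71 and 7 called. Pygm, muscle glycogen phosphorylase, lay at 10.27 to 12.37 (median 11.26) in muscle-rich specimens and at 6.32 to 9.92 (median 8.59) in muscle-poor specimens, a difference of 2.88 ± 0.55 without overlap. Mb, myoglobin, differed by 2.55 ± 0.52, and in homozygous replicate 3 it stood at 10.22, above heterozygous 9-month replicate 1 (9.97) of the muscle-rich specimens. Ampd1, the AMP deaminase of muscle, differed by 2.41 ± 0.39 and Eno3, muscle enolase, by 2.26 ± 0.34. Glycolytic Pgam2 and the cytochrome oxidase subunit Cox6a2 differed by 1.48 ± 0.24 and 1.57 ± 0.24. The insulin-responsive glucose carrier Slc2a4 and Gys1, glycogen synthase, which other cells share, differed by 0.53 ± 0.12 and 0.27 ± 0.12 and were not called. The 21 genes of oxidative phosphorylation that all cells use had a median difference of 0.00 and 0 called, beside 0.387% of all genes.

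Of 9 neuromuscular junction genes 0 were called, with a median of 0.02, and the acetylcholine receptor subunit Chrna1 lay at 6.33 to 6.71 in muscle-rich and 6.18 to 6.91 in muscle-poor specimens. Of 9 myogenic regulators 0 were called, with a median of 0.04, and Myod1 lay at 6.49 to 6.94 in muscle-rich and 6.41 to 6.87 in muscle-poor specimens. Only 0.387% of all genes were called, so 0 called in so short a list is no result on its own. Myf6, the regulator that adult fibres retain, missed the filter on low values at 5.81 to 6.83 in muscle-rich and 5.44 to 6.29 in muscle-poor specimens. Its correlation with Actn3 was 0.88. Many of these probe sets read near the 30th percentile of all probe sets (6.32), where differences are hard to see. Mstn, the growth inhibitor myostatin, differed by 0.62 ± 0.30, but this rested on heterozygous 18-month replicate 3 at 10.79, and its correlation with Actn3 was 0.02. Of 7 genes of the muscle membrane complex 7 were higher, with a median of 0.31 and 0 called. Capn3 and Sgca, a muscle protease and a sarcoglycan, differed by 0.60 ± 0.13 and 0.52 ± 0.14, and dystrophin, Dmd, by 0.29 ± 0.15.

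**Figure D3:**
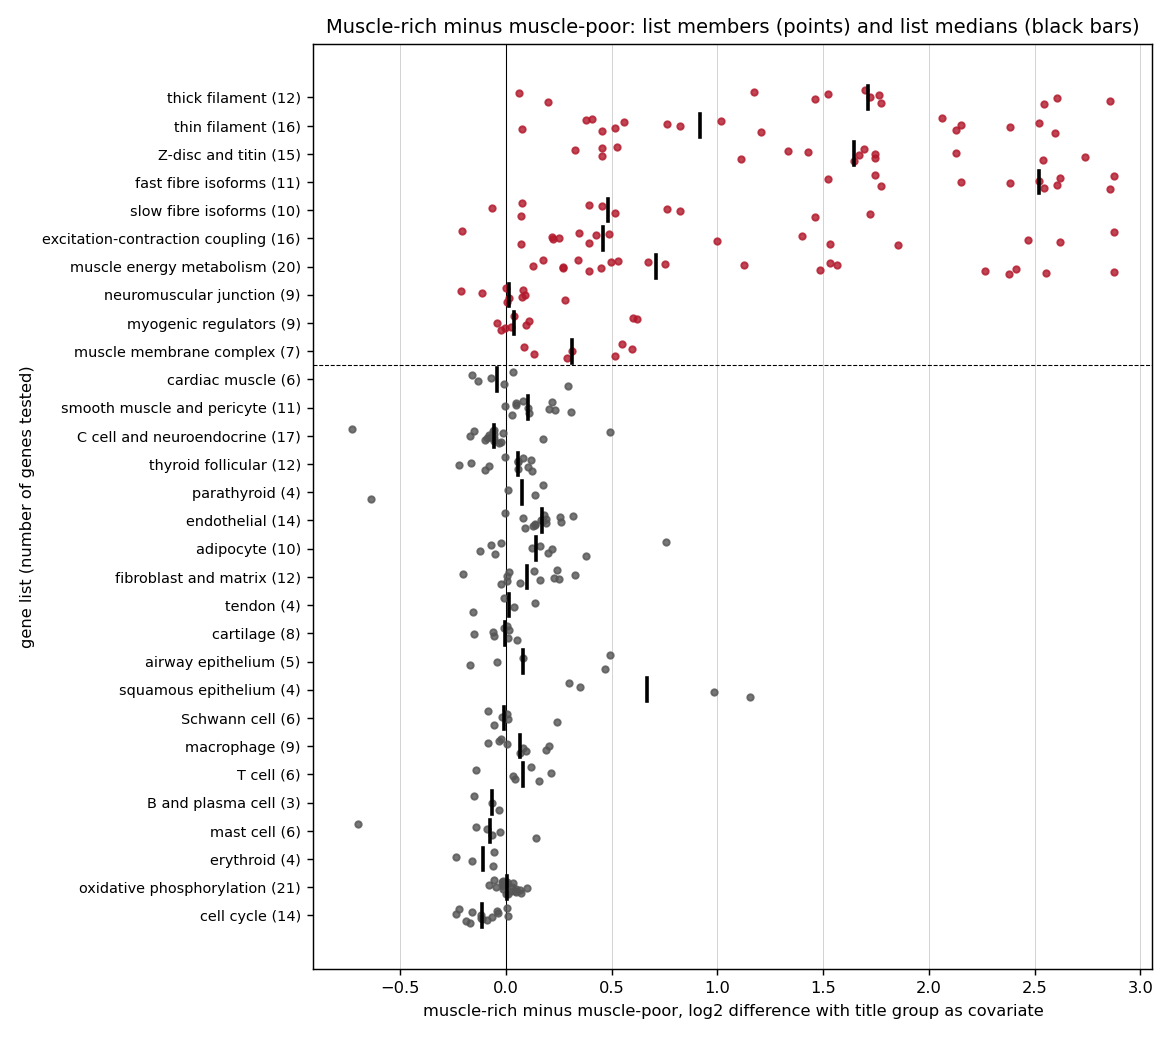
Muscle-rich minus muscle-poor log2 differences with title group as covariate (horizontal axis) of each gene tested (points) in 10 muscle lists (red, above the dashed line) and 20 lists of other tissues and processes (grey), with list medians as black bars. The fast-fibre list has the highest median at 2.52, and lists of other tissues centre near 0 except for the 4 squamous genes at 0.67.

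Genes called outside the muscle lists numbered 12. The largest difference was that of Myl11, the fast regulatory light chain of myosin. The thick filament and fast fibre lists name this gene by its older symbol, Mylpf, which was not matched. It is therefore a muscle-list gene that all list counts here leave out. Myl11 lay at 9.62 to 11.35 in muscle-rich and 6.50 to 9.32 in muscle-poor specimens and differed by 2.50 ± 0.45. Ppp1r3a, which directs a phosphatase to glycogen in muscle, differed by 2.15 ± 0.36. Hjv, hemojuvelin, a co-receptor in iron control that muscle and liver make, differed by 1.82 ± 0.32, with 7.65 to 9.68 in muscle-rich and 6.16 to 7.53 in muscle-poor specimens. Apobec2 (1.59 ± 0.24), Asb11 (1.52 ± 0.29), Tbx15 (1.35 ± 0.28), Txlnb (1.22 ± 0.24), Klhl31 (1.15 ± 0.22) and Tmem182 (0.97 ± 0.19) followed. The small heat shock protein Hspb6 (0.77 ± 0.14), the sodium pump regulator Fxyd1 (0.72 ± 0.15) and Art3 (0.69 ± 0.13) differed less. Of the 5 genes lower in muscle-rich specimens with the smallest p, none was called, and the smallest adjusted p among all lower genes was 0.292 (limma). Krt19, an epithelial keratin, lay at 9.23 to 10.37 in muscle-rich and 10.10 to 10.90 in muscle-poor specimens, with a difference of -0.65 ± 0.19. Wnt4 differed by -0.59 ± 0.18, and Phf21b, Fam32a and Tor1b by -0.18 to -0.14.

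The 20 lists of other tissues gave 176 further genes tested, 0 of them called and 5 at an unadjusted p under 0.05: Myh6, Cnn1, Sox17, Cd5 and Matn3. Over all 11369 genes these counts were 44 (0.387%) and 428. The counts of the 20 lists are no more than such shares would give and are no result about other tissues. Calca, the calcitonin gene of the tumour cells, lay at 13.75 to 14.12 in muscle-rich and 13.81 to 14.10 in muscle-poor specimens. The brightest value of each array was 14.43 to 14.49, so Calca read near the top of the scale, where differences are hard to see. Tg, the thyroglobulin gene of follicular cells, lay at 13.99 to 14.37 in muscle-rich and 11.08 to 14.36 in muscle-poor specimens, with its lowest value in heterozygous 18-month replicate 1. The mean of the thyroid follicular list was 9.13 to 11.21 in muscle-rich arrays and 7.46 to 11.13 in muscle-poor arrays. The mean of the C cell list was 9.995 to 11.93 (median 10.63) in muscle-rich arrays and 10.20 to 12.19 (median 11.37) in muscle-poor arrays. With title group as covariate, 2 of its 17 genes tested were higher in muscle-rich specimens, with a median difference of -0.06. The mean of the endothelial list was 8.38 to 9.76 (median 9.62) in muscle-rich and 7.87 to 9.65 (median 8.91) in muscle-poor arrays. These 3 lists move with age, and their part in the differences above was not tested. Without the 4 arrays highest on the first principal component, all of 18 months, 0 genes were called, an alternative chosen after seeing the data. These 4 include heterozygous 18-month replicate 3, the only muscle-rich array of 18 months. Without that array the difference is estimated from the 9-month arrays alone, so this count says nothing about the first component. The 44 genes kept their direction, which was largely set by how they were picked.

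In the cardiac list, Myh6, the atrial myosin heavy chain, lay at 6.27 to 6.95 in muscle-rich and 6.19 to 6.60 in muscle-poor specimens, with a difference of 0.29 ± 0.11 (SE) that was not called and a correlation with Actn3 of 0.78. Nppa and Tnni3 stayed at 6.24 to 6.72 and 6.09 to 6.50 in all 18 arrays, and the mean of the cardiac list ran from 6.75 to 7.32 in muscle-rich and 6.80 to 7.29 in muscle-poor arrays. Squamous epithelium, which lines the oesophagus, came in single specimens of both kinds. Its keratin Krt4 was 10.77 in homozygous replicate 6, 9.36 in heterozygous 9-month replicate 1, 8.49 in heterozygous 9-month replicate 2 and 8.47 in homozygous replicate 5 among muscle-rich arrays, and 9.43 in heterozygous 18-month replicate 6 among muscle-poor arrays. It lay at 7.14 or less in the other 13. Krt13, its partner keratin, was high in the same 5 arrays. Its correlation with Actn3 was 0.11, and that of Krt4 was 0.04. Parathyroid hormone, Pth, and the secretoglobin Scgb3a1 of airway and gland epithelium had correlations of 0.15 each, and Ucp1, the uncoupler of brown fat, 0.20. Pth was low in heterozygous 18-month replicates 3 (6.54) and 2 (6.02) and in homozygous replicate 2 (8.33), one muscle-rich and the others muscle-poor.

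**Figure D4:**
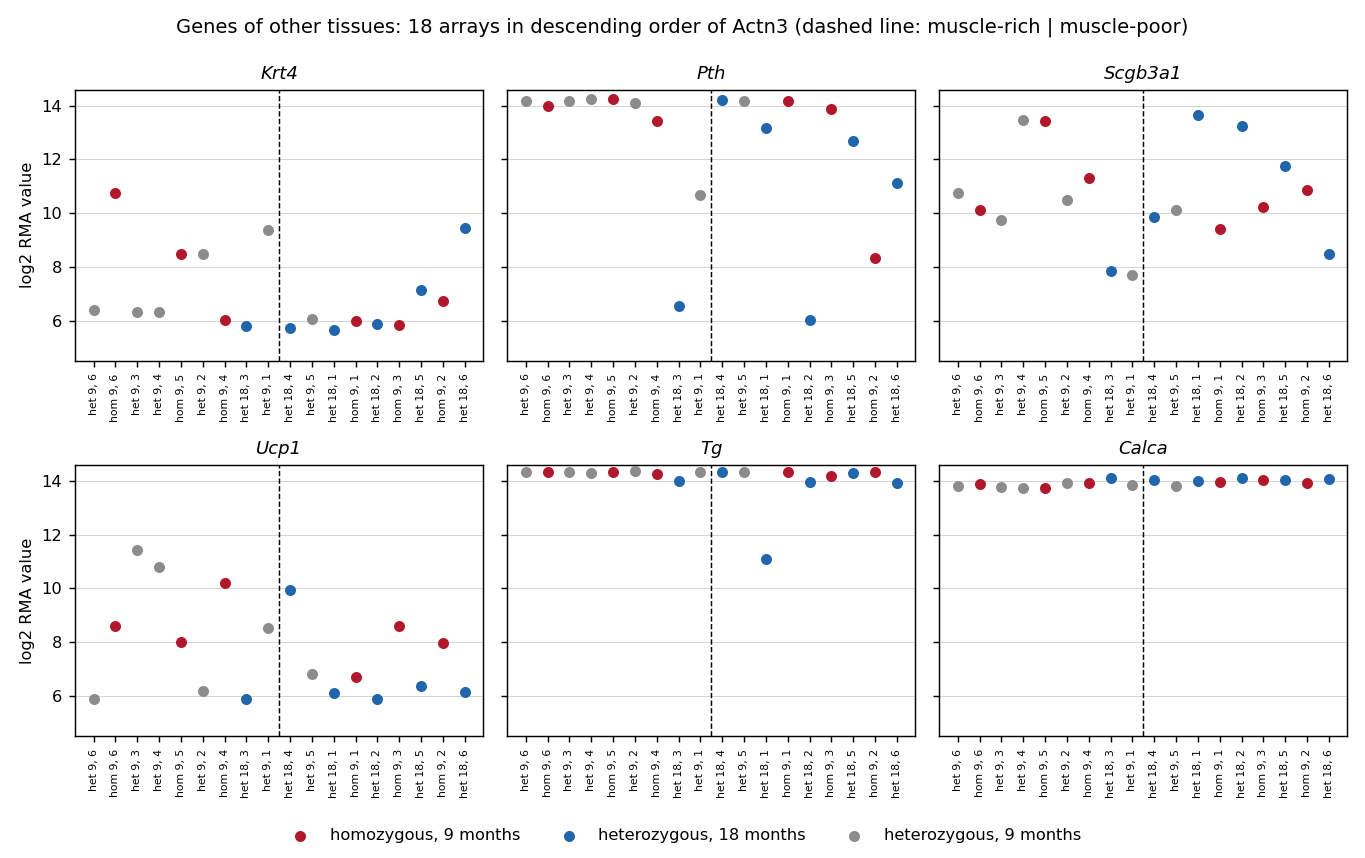
Log2 RMA values (vertical axis) of Krt4 (squamous epithelium), Pth (parathyroid), Scgb3a1 (airway), Ucp1 (brown fat), Tg (follicular cells) and Calca (C cells) in 18 arrays in descending order of Actn3, one point per array coloured by title group, with muscle-rich arrays left of the dashed line. High and low values of the first 4 genes fall on both sides. Calca stays between 13.75 and 14.12 throughout, near the brightest value of each array (14.43 to 14.49).

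Whether the difference between muscle-rich and muscle-poor specimens varied between title groups was tested as an interaction, which called 0 of 11369 genes (0%), although 416 reached an unadjusted p under 0.05 and the lowest adjusted p was 0.0582 (limma). It called 9 genes without a filter and 4 with the filter at the 50th percentile, 0 of them in the muscle lists. With 5 of 6 arrays on 1 side in each heterozygous group this test has little to work on. The homozygous group holds 3 of each. There Ckm stood at 11.99, 12.13 and 12.69 in the muscle-rich arrays, against 8.31, 9.06 and 10.27 in the muscle-poor arrays. Ckm is the gene most like Actn3, so this split follows from the ranking and is a description only.

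The title groups were not chosen by muscle values, so muscle genes can be tested between them. Both comparisons use the same heterozygous 9-month arrays. Homozygous specimens were set against heterozygous ones at 9 months to ask what the second mutant allele changes. Actn3 averaged 9.31 ± 2.07 in homozygous and 10.65 ± 0.81 in heterozygous specimens (SD, n = 6 each), a difference of -1.35 ± 0.84 (SE) with an adjusted p of 0.641 (limma over 11370 genes). Myh4 averaged 9.84 ± 2.39 in homozygous and 11.58 ± 0.90 in heterozygous specimens, with an adjusted p of 0.614. The fit called 0 genes (0%), with 995 of 11370 at an unadjusted p under 0.05. Among them were 4 of the 106 muscle-list genes, a smaller share than over all genes: Mef2d, Jsrp1, Sln and Myog. With array weights 118 genes were called, 0 of them in the muscle lists, and leaving out each array gave 0 to 2. The median over the 106 muscle-list genes was -0.14, beside 0.00 over all genes. The spread among homozygous specimens was wide, since homozygous replicates 4, 5 and 6 were muscle-rich and replicates 2 and 3 were among the 4 lowest arrays.

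Heterozygous specimens of 18 months were set against those of 9 months to ask what changes with age. Actn3 averaged 8.64 ± 1.53 at 18 months and 10.65 ± 0.81 at 9 months (SD, n = 6 each), a difference of -2.01 ± 0.84 (SE) that missed the threshold with an adjusted p of 0.0607. Ckm differed by -1.78 ± 0.76 (adjusted p = 0.0684), Pvalb by -2.02 ± 0.87 (0.0706) and Atp2a1 by -1.93 ± 0.87 (0.0832), all by limma and not called. Myh4 averaged 8.85 ± 1.98 at 18 months and 11.58 ± 0.90 at 9 months, and its difference of -2.73 ± 1.00 was called (adjusted p = 0.0354, limma). That call was lost without any one of heterozygous 9-month replicates 2, 3, 4 and 6 or heterozygous 18-month replicates 2, 5 and 6, and the difference ranged from -3.17 to -2.23 over all 18 arrays left out in turn. With the muscle-rich or muscle-poor class as a covariate, chosen after seeing the data, the Myh4 difference was -0.83 (adjusted p = 0.4997, limma). The class was made from Actn3, which Myh4 follows, and it is spread unevenly over the 2 ages. Such a covariate shrinks the age difference of a muscle gene by construction, so the smaller value decides nothing. Slow Myh7 averaged 7.43 ± 0.98 at 18 months and 7.68 ± 0.90 at 9 months (adjusted p = 0.746, limma).

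Over the muscle lists 6 genes rose and 20 fell with age while 80 were not called, so that 24.5% were called, against 44.1% of all genes (21.6% higher and 22.4% lower). The median of the muscle lists was -0.38, beside 0.00 over all genes. The number of muscle-list genes called depended on single arrays: it was 40 (5 higher, 35 lower) without heterozygous 18-month replicate 3, and 17 (5 higher, 12 lower) without heterozygous 18-month replicate 6 or without heterozygous 9-month replicate 3. With the muscle-rich or muscle-poor class as a covariate, an alternative chosen after seeing the data, it was 16 (11 higher, 5 lower). Only Mybpc2 and Fxyd1 of the 44 genes called between muscle-rich and muscle-poor specimens were also called here. Mybpc2, the fast myosin-binding protein C, averaged 8.54 ± 0.88 at 18 months and 10.07 ± 0.54 at 9 months (SD), with a difference of -1.53 ± 0.49 (SE, adjusted p = 0.0178, limma). Its call was lost with that covariate, where the difference was -0.52 (adjusted p = 0.323, limma). Since the class comes from Actn3, neither this loss nor the count of 16 can tell age and muscle content apart.

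The muscle-list genes tested in all 27 alternatives and called with age in each were others, with weak relation to Actn3. Jph1, which joins the fibre membrane to the calcium store, averaged 7.77 ± 0.52 at 18 months and 9.23 ± 0.35 at 9 months (SD, n = 6), a difference of -1.46 ± 0.23 (SE, adjusted p = 4e-04, limma). The groups did not overlap, with 7.28 to 8.45 at 18 months and 8.82 to 9.62 at 9 months. Pdk4, a kinase that restrains glucose oxidation, fell by 1.60 (adjusted p = 0.0016, limma), Asph by 1.06 and Lrp4, the agrin receptor, by 0.93. Upward, Cacnb1 averaged 9.60 ± 0.54 at 18 months and 8.38 ± 0.25 at 9 months, a difference of 1.22 ± 0.23. Mstn rose by 1.13, Atp2a2 by 0.45, the transcription factor Mef2d by 0.42 and Six4 by 0.38. The correlations of these genes with Actn3 within title groups lay between -0.35 and 0.23. Fbp2 of the energy list, not counted in that range, passed the filter in 26 alternatives. It was called with age in all 26, with differences of -0.52 to -0.37. In the same comparison 13 of 17 C cell and neuroendocrine genes were called higher. Called lower were 11 of 12 thyroid follicular, 14 of 14 endothelial and 9 of 10 adipocyte genes. Of all genes tested, 21.6% were called higher and 22.4% lower. The part of these cells in the muscle-list changes was not tested.

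**Figure D5:**
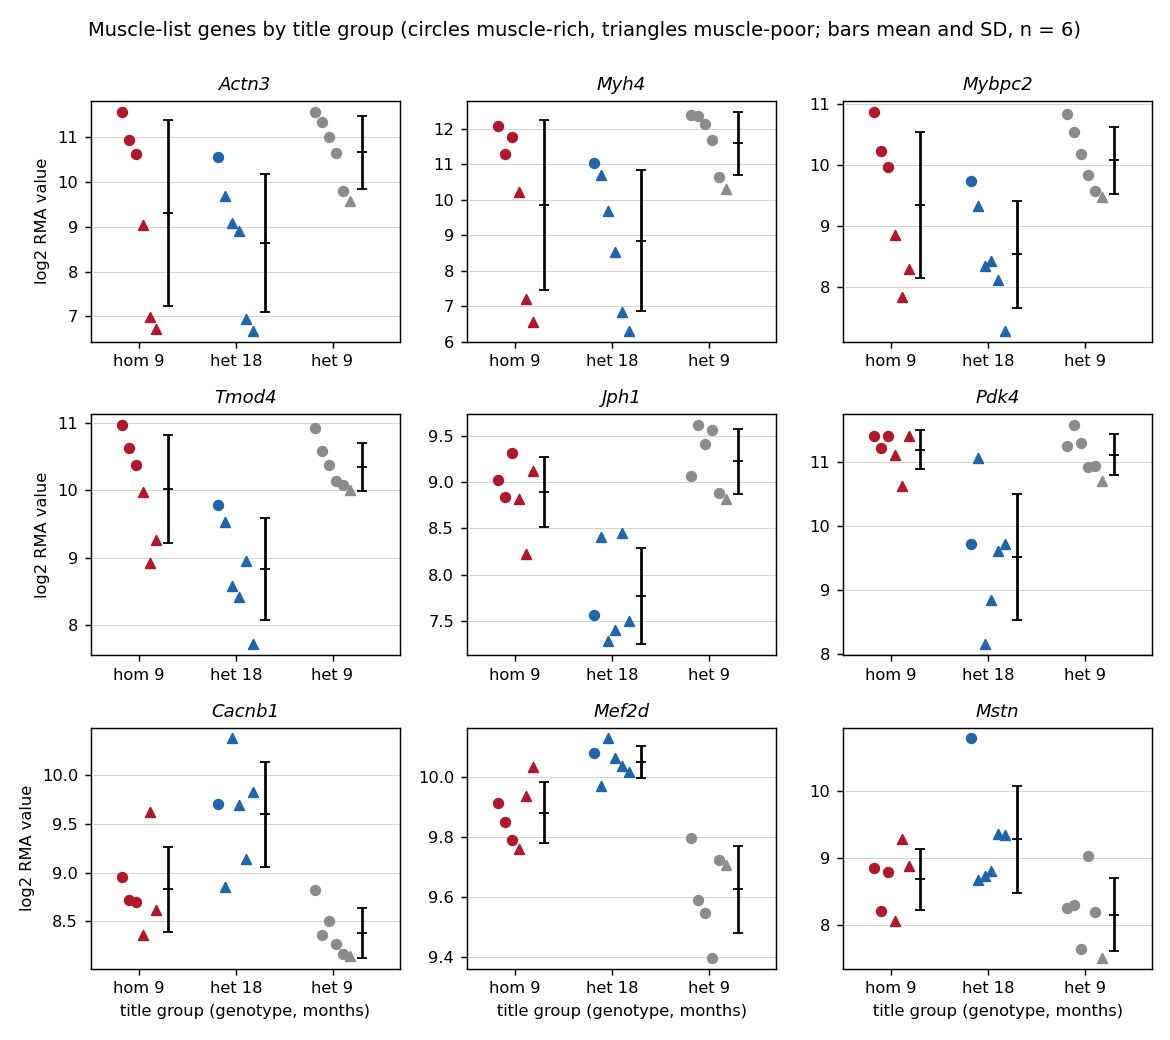
Log2 RMA values (vertical axis) of 9 muscle-list genes in homozygous 9-month, heterozygous 18-month and heterozygous 9-month specimens (horizontal axis), with circles for muscle-rich and triangles for muscle-poor arrays and bars for mean and SD (n = 6). Actn3 and Myh4 spread over several log2 units within homozygous and 18-month groups, whereas Jph1 and Cacnb1 separate the 18-month from the 9-month heterozygous arrays in opposite directions.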

How the data were processed

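For 18 arrays the authors deposited log2 expression values per probe set. The submitters' processing notes name RMA and version 1.3.0.187 of Affymetrix Expression Console. Per the labels' protocols, RNA was purified with RNeasy kits, amplified and biotin-labelled with Nugen kits. Array medians lay at 7.55 to 7.65, and precision is limited by the number of arrays, each of a different animal code. Of 29214 probe sets 15310 had 1 symbol, and each of 14506 genes was read through its probe set of highest mean.

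Arrays were ordered by Actn3, which was then left out, and muscle-rich minus muscle-poor differences were fitted with title group as covariate in limma 3.58.1 (R 4.3.3), for genes with a mean of at least 6.32, the 30th percentile. Title groups were compared in a second fit. Genes were called at a Benjamini-Hochberg adjusted p under 0.05 over all genes tested. Named were Actn3, Myh4, members of the muscle lists (the 4 largest differences of each first), called genes outside them or the 5 with the smallest p, the 2 smallest p of other lists and the 12 genes most like Actn3. Gcg, Calca, Tg, Ucp1, Scgb3a1, Nppa and Tnni3 were added after their values were seen. Members and lists were chosen with earlier results of these data known. The procedure was tested on simulated data. Alternatives were other filters, normalizations, weights and orderings, a replicate block and leaving out each array.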

Additional observations from a re-analysis of the deposited data

Results flagged for a closer look

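Within the 3 title groups of 6 arrays, 23 of 279 combinations of gene and group (8.24%) had an array set apart from the rest of its group. For independent values chance gives about 1 in 20. The genes were picked from these same arrays and many move together, so 8.24% shows no excess over chance. Slow-fibre genes made up several of the 23. In homozygous replicate 6, Myh7 stood at 10.11, next highest 7.36, Tnni1 at 8.87, next 7.44, and Tnnt1 at 7.94, next 6.04. In heterozygous 18-month replicate 3, Myl3 stood at 9.09, next 7.06, Myh7 at 9.32, next 7.46, and Mstn at 10.79, next 9.35. The same array was low for Phf21b (8.36) and Krt19 (9.43).

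Heterozygous 18-month replicate 6, lowest of all in Actn3, was high for the keratin Krt13 (9.62) and for the red cell genes Slc4a1 (8.90) and Alas2 (10.08). Homozygous replicate 3 was high for Dok7 (7.50), the gastrin receptor Cckbr (7.71) and the histamine enzyme Hdc (8.83), and low for the thyroid oxidase genes Duox2 (8.19) and Duoxa1 (8.92). Pth was low in homozygous replicate 2 (8.33) and heterozygous 9-month replicate 1 (10.67), the second of which was also low for Dok7 (6.62). Single values further stood apart for Cckbr in heterozygous 18-month replicate 2 (6.54, low), Gata3 in heterozygous 18-month replicate 4 (10.99, high), Lum in homozygous replicate 4 (9.91, high) and Foxj1 in homozygous replicate 1 (7.83, high).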

How the results depend on the processing

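The number of genes called between muscle-rich and muscle-poor specimens (44) moved with the setting. It was 26 with a filter at the 50th percentile, 71 with arrays divided within each title group, 93 with Actn3 as a continuous covariate (89 higher, 4 lower), 86 without the title group covariate, 1 with the 6 highest against the 6 lowest arrays and 0 with the replicate block, with only the 9-month arrays or without the 4 arrays highest on the first component (chosen after seeing the data). Leaving out each array gave 0 to 53. With the other alternatives it was 35 to 55. What arrays of the same replicate number share was not tested. Same-numbered heterozygous arrays of 18 and 9 months correlated at -0.13 to 0.33, and 3 of 6 matched best with their own number. Same-numbered homozygous and heterozygous 9-month arrays correlated at -0.14 to 0.30, and 1 of 6 matched best with its own number. With the block the age call of Myh4 was lost too. The interaction called 9 genes without a filter and 4 with the stricter filter, none in the muscle lists. The genotype comparison called 118 genes with array weights, none in the muscle lists, 0 to 2 when leaving out each array and 0 otherwise. The age comparison called 3442 to 5818 genes, with 16 to 40 muscle-list genes. With the muscle-rich or muscle-poor class as a covariate (made from Actn3 and chosen after seeing the data) these were 11 higher and 5 lower. Over named genes, all comparisons together, no called difference changed sign. A call was lost in 324 combinations of a gene with an array left out and in 157 of a gene with another alternative, and gained in 12 and 45. The causes were not tested. Low probe signals limit what can be read for myogenic regulators.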

Other observations

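Probe sets without a gene symbol held further differences between muscle-rich and muscle-poor specimens. Of 8255 tested, limma called 20 higher and 0 lower, and 24 were higher and 5 lower by at least 1 log2 unit, with a largest difference of 2.75. They are not named here. Of 141 probe sets with several symbols, 0 were called and 0 differed by at least 1.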
